A study of Homo sapiens with 4 samples.

Results

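The loci of 9 genes of transforming growth factor beta (TGF-beta) signalling, with the ubiquitin ligase gene SMURF2 at their head, were examined for RNA recovered with the RNA-binding protein HuR. Members were the peaks of 2 deposited lists that overlapped the window of a locus by at least 1 bp on genome build hg19. There were 129 member peaks among 36216 in the list of irradiated cells and 139 among 47930 in the list of cells that were not irradiated. The cells were WS1, a human skin fibroblast line, given 5 Gy or 0 Gy of X-rays, with no other treatment in the labels. At each dose, RNA was immunoprecipitated with HuR (RIP) or with control immunoglobulin (IgG) and sequenced, which makes 4 libraries with 1 per group, and each peak list is HuR over the IgG of its own dose. No time after irradiation is given in the labels. With 1 library per group there was no replicate check and no p-value, and every difference between the doses below is a difference between these 2 lists. The windows of 8 loci were fixed coordinates for the named genes, which were not checked against an hg19 annotation. The SMURF2 window was the span of a chain of peaks of both lists and had been picked with its greater coverage at 5 Gy known, so its values are given as a description only.

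HuR, encoded by ELAVL1, binds U-rich and AU-rich stretches in the introns and 3′ untranslated regions of pre-mRNA and mRNA, and is best known for stabilizing mRNAs. In the TGF-beta pathway the ligand binds the type II receptor TGFBR2, which phosphorylates the type I receptor TGFBR1. TGFBR1 in turn phosphorylates SMAD2 and SMAD3, which join SMAD4 and act on transcription in the nucleus. SMAD7, SKIL (SnoN) and the ligases SMURF1 and SMURF2 hold the pathway back. In skin fibroblasts the pathway is known for driving the production of matrix proteins. A peak marks a stretch where reads from the HuR library piled up above IgG. Its length and number do not tell the amount of an RNA apart from the share of it recovered with HuR. The lists carry no strand. In the current RefSeq table (GRCh38), 4 of the 9 genes have no other gene within their bounds, SMURF2 among them. In the rest, peaks cannot be assigned to the named gene alone. The direction of transcription was taken from RefSeq, and positions below run from the 5′ end of each window to its 3′ end.

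The sequence before the start of SMURF2 is shown because, as described further on, the lists shared no peak at the 5′ end of the SMURF2 window. RefSeq gives SMURF2 1 start in its table, and the 250 bases before it on the minus strand of build GRCh38.p14 (chr17:64662308-64662557) read as follows, with GC boxes in capitals.
SMURF2: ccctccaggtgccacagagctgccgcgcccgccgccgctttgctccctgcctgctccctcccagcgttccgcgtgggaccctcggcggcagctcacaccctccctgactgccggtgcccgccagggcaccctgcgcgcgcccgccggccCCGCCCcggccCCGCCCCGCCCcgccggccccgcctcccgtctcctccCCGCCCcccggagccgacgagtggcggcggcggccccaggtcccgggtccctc
A GC box was searched for as CCGCCC on either strand, and the 4 matches, of which a pair overlaps by 1 base, begin 101, 90, 85 and 53 bases before the start. GC bases made up 82.0% of these letters, against a median of 58.0% over the 35116 RefSeq start windows of the same length. At least 1 match was present in 42.6% of those windows and in 12 of the 24 start windows of the 9 genes. The peaks are on hg19 and were not placed on these letters, and the bases under the peaks themselves are not shown because no hg19 sequence was used here.

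Over the 9 loci, peaks covered 141.0 kb at 5 Gy and 124.6 kb at 0 Gy, or 113% at 5 Gy relative to 0 Gy, while over all peaks of the lists that figure was 91.7% (34.7 Mb at 5 Gy and 37.9 Mb at 0 Gy). The excess lay in SMURF2. Without it, 86.8 kb were covered at 5 Gy and 86.2 kb at 0 Gy, or 101%. The 5 Gy peak number was 92.8% of the 0 Gy one in the 9 loci (95% interval 73.1 to 118, for counting error only), against 75.6% over all peaks (74.5 to 76.6). It turned to 112% when the 0 Gy list was cut to its highest scores until both lists had the same size. The number over all peaks is then equal at both doses by construction, so the reference moves as well. Member peaks averaged 1093 bp at 5 Gy against 896 bp at 0 Gy, and all peaks averaged 958 bp at 5 Gy against 790 bp at 0 Gy. The longer mean peak at 5 Gy was found in 7 of the 9 loci, the exceptions being SMAD4 and TGFBR1.

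**Figure D1:**
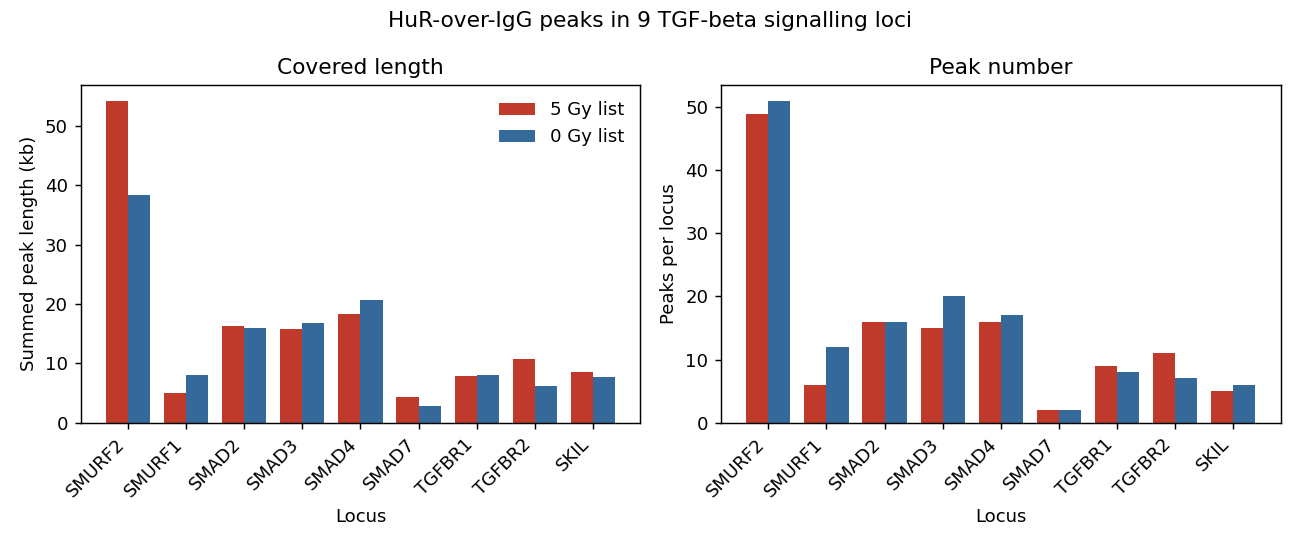
Summed peak length in kb (left) and number of peaks (right) in each of the 9 loci, with the 5 Gy list in red and the 0 Gy list in blue. There is 1 library pair per dose and no error bar; SMURF2 stands highest in both panels, with 54.2 kb at 5 Gy and 38.3 kb at 0 Gy.

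The loci differed in direction. Covered length was greater at 5 Gy in 5 loci and smaller in 4, and peak number was greater in 2, smaller in 5 and equal in 2. Over all peaks the 5 Gy list stood at 91.7% of the 0 Gy list in covered length and 75.6% in peak number. Of the loci smaller in covered length, SMAD3 (94.5%) and TGFBR1 (97.2%) were above the figure over all peaks, SMAD4 (88.1%) and SMURF1 (62.7%) below. Of those smaller in peak number, SMURF2 (96.1%), SMAD4 (94.1%) and SKIL (83.3%) were above it, SMAD3 (75%) and SMURF1 (50%) below. Among regions of at least 10 peaks, made by joining all peaks within 10 kb, 14.7% of 2300 had a covered length at least 1.2-fold higher at 5 Gy and 32.9% one at least 1.2-fold lower. Of the 7 loci other than SMURF2 with at least 10 peaks, 1 was at least 1.2-fold higher (TGFBR2) and 1 at least 1.2-fold lower (SMURF1). Gene windows and joined regions are cut differently, and 7 loci are too few to set against these shares.

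SMURF2 encodes a HECT-type ubiquitin ligase that, bound to SMAD7, marks the TGF-beta receptors for degradation. Its window (hg19 chr17:62538264-62659165, minus strand) held 49 peaks spanning 54.2 kb at 5 Gy, against 51 spanning 38.3 kb at 0 Gy. The covered share of the window was 44.8% at 5 Gy and 31.7% at 0 Gy, and in no other locus was it above 33.1% at 5 Gy or 37.7% at 0 Gy, the values of SMAD4. SMURF2 peaks averaged 1106 bp at 5 Gy against 751 bp at 0 Gy, and those of at least 1000 bp numbered 16 at 5 Gy and 11 at 0 Gy. SMURF2 peaks were thus close in number at the doses and longer on average at 5 Gy. All peaks were also longer on average at 5 Gy, 958 bp against 790 bp at 0 Gy, and their 5 Gy number was 75.6% of the 0 Gy one. The share of peaks of at least 1000 bp over all peaks was not computed. The order in number of SMURF2 peaks turned, to 114%, with lists of equal size, where the number over all peaks is equal by construction.

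The difference in SMURF2 ran in opposite directions along the window. In the first 10 kb from the 5′ end, 0.579 kb was covered at 5 Gy and 7.81 kb at 0 Gy. In the 100.9 kb between the first and last 10 kb, 45.4 kb were covered at 5 Gy and 23.0 kb at 0 Gy, or 197%. In the last 10 kb, 8.25 kb were covered at 5 Gy and 7.54 kb at 0 Gy. Among the 13 stretches of 10 kb (the last one shorter), 12 had more covered at 5 Gy and 1, the first, had less. Of 12 stretches with at least 2 kb covered in both lists together, 6 were at least 2-fold higher at 5 Gy, and 1 was at least 2-fold lower. Among 11239 tiles of 10 kb over all chromosomes with the same minimum, the background was 5.81% at least 2-fold higher at 5 Gy and 9.29% at least 2-fold lower. The SMURF2 window was chosen on this contrast, so its count is not read against that background.

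**Figure D2:**
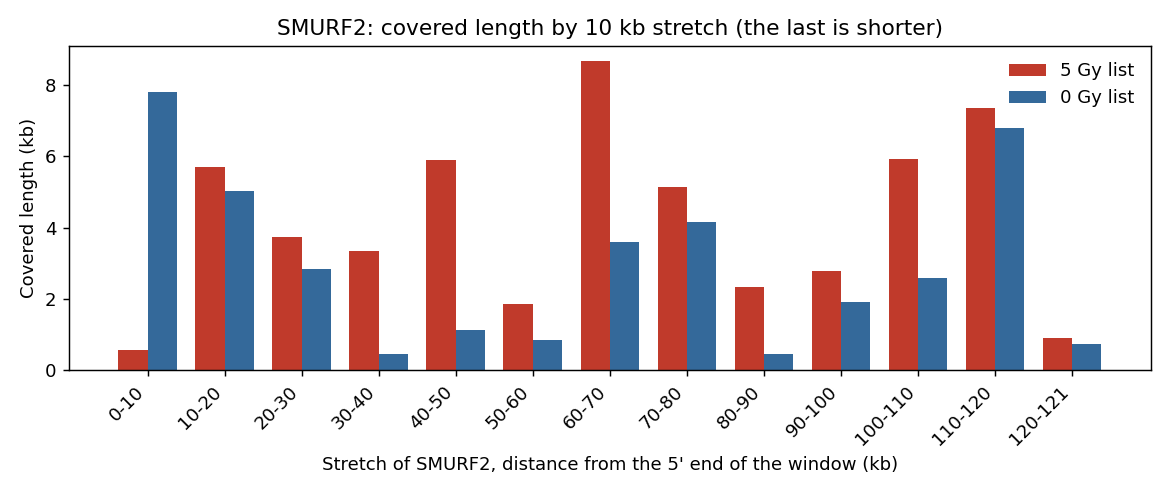
Covered length (kb) in successive 10 kb stretches of the SMURF2 window from its 5′ end (left) to its 3′ end (right), 5 Gy in red and 0 Gy in blue, 1 library pair per dose. The first stretch has 0.579 kb at 5 Gy and 7.81 kb at 0 Gy, and every later stretch has more covered at 5 Gy.

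At the 5′ end of the SMURF2 window the lists did not share a peak. Within the first 12 kb the 5 Gy list had 1 peak, of 579 bp with a score of 131.88, ending 0.578 kb into the window. The outer end of this peak is itself the 5′ edge of the window. The hg19 start of the gene was not placed, so whether this peak lies within the transcript is not known here. No 5 Gy peak followed for 11.6 kb, the widest gap between 5 Gy peaks in the locus. The 0 Gy list had 9 peaks in the same stretch, of 392 to 2339 bp and 9.20 kb in all, with scores of 146.48 to 909.93 and none overlapping a 5 Gy peak. Over all 0 Gy peaks 58.1% overlapped one. The limit of 12 kb was set with the peaks in view and falls just before the first overlapping pair, so the absence of overlap follows from it. The longest of them, 2339 bp with a score of 812.31 (62656130 to 62658468), began 0.697 kb from the 5′ end and was the longest 0 Gy peak of the locus without a match. It lay 118 bp from the single 5 Gy peak. The score is the authors' peak score, which has the form of a p-value on a negative logarithmic scale and starts at 60. It grows with depth, which is unknown here, so scores of the 2 lists stand beside each other below as the authors' values and no difference between the doses is read from them. A score minimum, where one is used, also cuts the lists at unknown and possibly unequal depths.

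Past the first 12 kb, SMURF2 had several wide 5 Gy peaks where the 0 Gy list had short peaks or none. Between 40 and 50 kb, 5.89 kb were covered at 5 Gy and 1.13 kb at 0 Gy. A 5 Gy peak of 3112 bp there, 40.9 kb from the 5′ end, lay over 3 peaks of the 0 Gy list, of 447, 374 and 311 bp. The next 5 Gy peak, of 2589 bp (62612008 to 62614596, score 587.84), was the longest of the locus without a match at 0 Gy, with 1.18 kb to the closest 0 Gy peak. Around it the 0 Gy list had its widest gap in the locus, 11.7 kb without a peak.

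Between 60 and 70 kb, 8.66 kb were covered at 5 Gy and 3.60 kb at 0 Gy. The longest 5 Gy peak of the locus, of 4649 bp (62582241 to 62586889, score 1650.69), began 72.3 kb from the 5′ end. It lay over 5 peaks of the 0 Gy list, more than any other SMURF2 peak of either list. Those 5 peaks had 507, 378, 1299, 347 and 1624 bp. In all, 8 SMURF2 peaks at 5 Gy touched 2 or more 0 Gy peaks, and 2 SMURF2 peaks at 0 Gy touched 2 or more 5 Gy peaks. The share of such peaks over all peaks was not computed. The 0 Gy list as a whole has more and shorter peaks (47930, mean 790 bp) than the 5 Gy list (36216, mean 958 bp). These counts are therefore not a result about SMURF2. Scores of at least 1000 were given to 5 SMURF2 peaks at 5 Gy and to 1 at 0 Gy. Over all peaks, 13.1% at 5 Gy and 12.2% at 0 Gy had such a score.

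**Figure D3:**
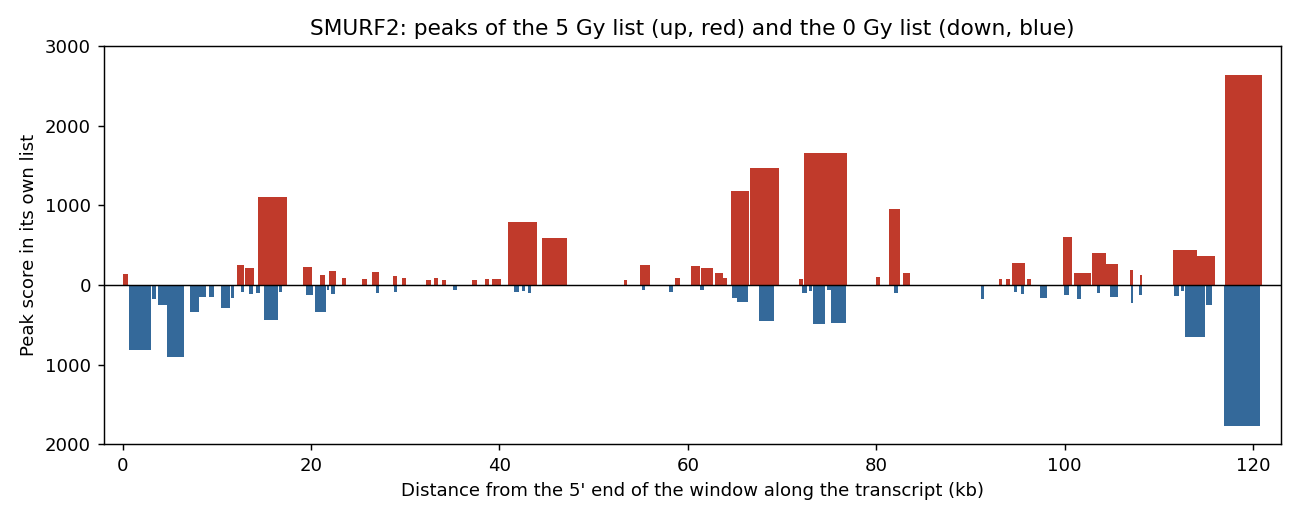
Peaks of SMURF2 by distance from the 5′ end of the window (kb) and score in their own list, with the 5 Gy list upward in red and the 0 Gy list downward in blue; the width of a bar is the length of the peak. The 0 Gy list has 9 peaks in the first 12 kb where the 5 Gy list has 1, and both lists have the long peak at the 3′ end.

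By bases, 25.6 kb of SMURF2 were covered at both doses, 28.6 kb at 5 Gy only and 12.8 kb at 0 Gy only. The bases held in common made up 47.2% of those covered at 5 Gy and 66.7% of those covered at 0 Gy. By peaks, 26 of 49 at 5 Gy overlapped a 0 Gy peak (53.1%, Wilson 95% interval 39.4 to 66.3, counting error only), with a background of 73.0% over all 5 Gy peaks. Of the 51 peaks at 0 Gy, 38 overlapped a 5 Gy peak (74.5%, 61.1 to 84.5), with a background of 58.1% over all 0 Gy peaks. The unmatched SMURF2 peaks numbered 23 at 5 Gy and 13 at 0 Gy. The 0 Gy ones thus lay largely in the 5′ cluster, which held 9 of the 13. These shares count neighbouring peaks of 1 transcript as if they were independent, and come from the contrast on which SMURF2 was chosen.

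SMURF1, the close relative of SMURF2 and a ligase for SMADs and for the receptors, differed the other way. Its window (chr7:98625058-98741743, minus strand) held 6 peaks spanning 5.04 kb at 5 Gy, against 12 spanning 8.04 kb at 0 Gy, or 62.7% in covered length. With peaks of a score of at least 150 alone that share was 15.2%, which rests on 1 peak at 5 Gy (760 bp) and 4 at 0 Gy (5000 bp). That minimum removes the 5 Gy peak at the 3′ end, whose score was 92.19. On GRCh38, RefSeq places the long non-coding RNA gene LOC101927550 within the bounds of SMURF1. Without strand, peaks in the window cannot be assigned to SMURF1 alone. The windows of the paralogues have nearly the same size, 116686 bp for SMURF1 and 120902 bp for SMURF2, yet the covered share of SMURF1 was 4.32% at 5 Gy and 6.89% at 0 Gy. At the 3′ end the 5 Gy peak had 1961 bp (score 92.19 in its list), and the 0 Gy peak had 3251 bp (score 517.75 in its list). A cluster between 83.7 and 88.7 kb from the 5′ end was present at both doses, with 3 peaks at 5 Gy and 7 at 0 Gy. Of the 7, 4 overlapped a 5 Gy peak, near the background of 58.1% over all 0 Gy peaks. The 0 Gy peak of 342 bp at the 5′ end had no match, with 21.5 kb to the closest 5 Gy peak. The longest unmatched peaks of SMURF1 were 511 bp at 5 Gy (98633060 to 98633570, score 108.15) and 625 bp at 0 Gy (98645663 to 98646287, score 164.56).

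The receptor genes were unlike each other. TGFBR1, the kinase that activates SMAD2 and SMAD3, had peaks in both lists at most of its places. Its window (chr9:101867395-101916474, plus strand) held 9 peaks spanning 7.80 kb at 5 Gy, against 8 spanning 8.03 kb at 0 Gy, a direction that turned (109%) when peaks within 1 kb were joined. Of the 9 peaks at 5 Gy, 8 overlapped the other list (Wilson 95% interval 56.5 to 98.0%, background 73.0%), and at 0 Gy all 8 did (67.6 to 100%, background 58.1%). The covered bases held in common were 91.2% of those at 5 Gy and 88.0% of those at 0 Gy. The exception was a 5 Gy peak of 213 bp (101908722 to 101908934, score 137.33). Neither list had a peak between 0.432 and 23.5 kb from the 5′ end of TGFBR1. The 4 peaks in its middle part had lengths of 282 to 560 bp in the 5 Gy list and 469 to 517 bp in the 0 Gy list, with scores up to 845.63 at 5 Gy and 1177.83 at 0 Gy.

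TGFBR2, the receptor that binds the ligand, had 11 peaks spanning 10.6 kb at 5 Gy, against 7 spanning 6.24 kb at 0 Gy (chr3:30647994-30735634, plus strand), or 171% in covered length. The order in peak number, but not in covered length, turned when peaks within 1 kb were joined, to 4 peaks at 5 Gy and 6 at 0 Gy. RefSeq places 2 other genes within the bounds of TGFBR2 on GRCh38, the pseudogene KLHL25P1 and the protein-coding LOC105377015, so peaks in the window cannot be assigned to TGFBR2 alone from lists without strand. The difference lay at the 5′ end of the window. In the first 10 kb, 8 peaks covered 6.83 kb at 5 Gy, and 4 peaks covered 2.36 kb at 0 Gy, or 289%. The last of the 8 peaks at 5 Gy ended 8.15 kb in, whereas the last of the 4 peaks at 0 Gy ended 5.48 kb in. Between the end parts 0.847 kb was covered at 5 Gy and 1.19 kb at 0 Gy, and in the last 10 kb 2.93 kb at 5 Gy and 2.69 kb at 0 Gy. No TGFBR2 peak scored above 310.14 at 5 Gy or above 210.6 at 0 Gy. The longest unmatched TGFBR2 peaks were 1019 bp at 5 Gy, 3.97 kb from the 5′ end (score 112.6), and 360 bp at 0 Gy, 38.2 kb from the 5′ end (score 161.72), which had no 5 Gy peak within 26.5 kb. At the 5′ end of their windows TGFBR2 and SMURF2 therefore differed in opposite directions between the lists. This contrast was seen in the data and was not tested.

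**Figure D4:**
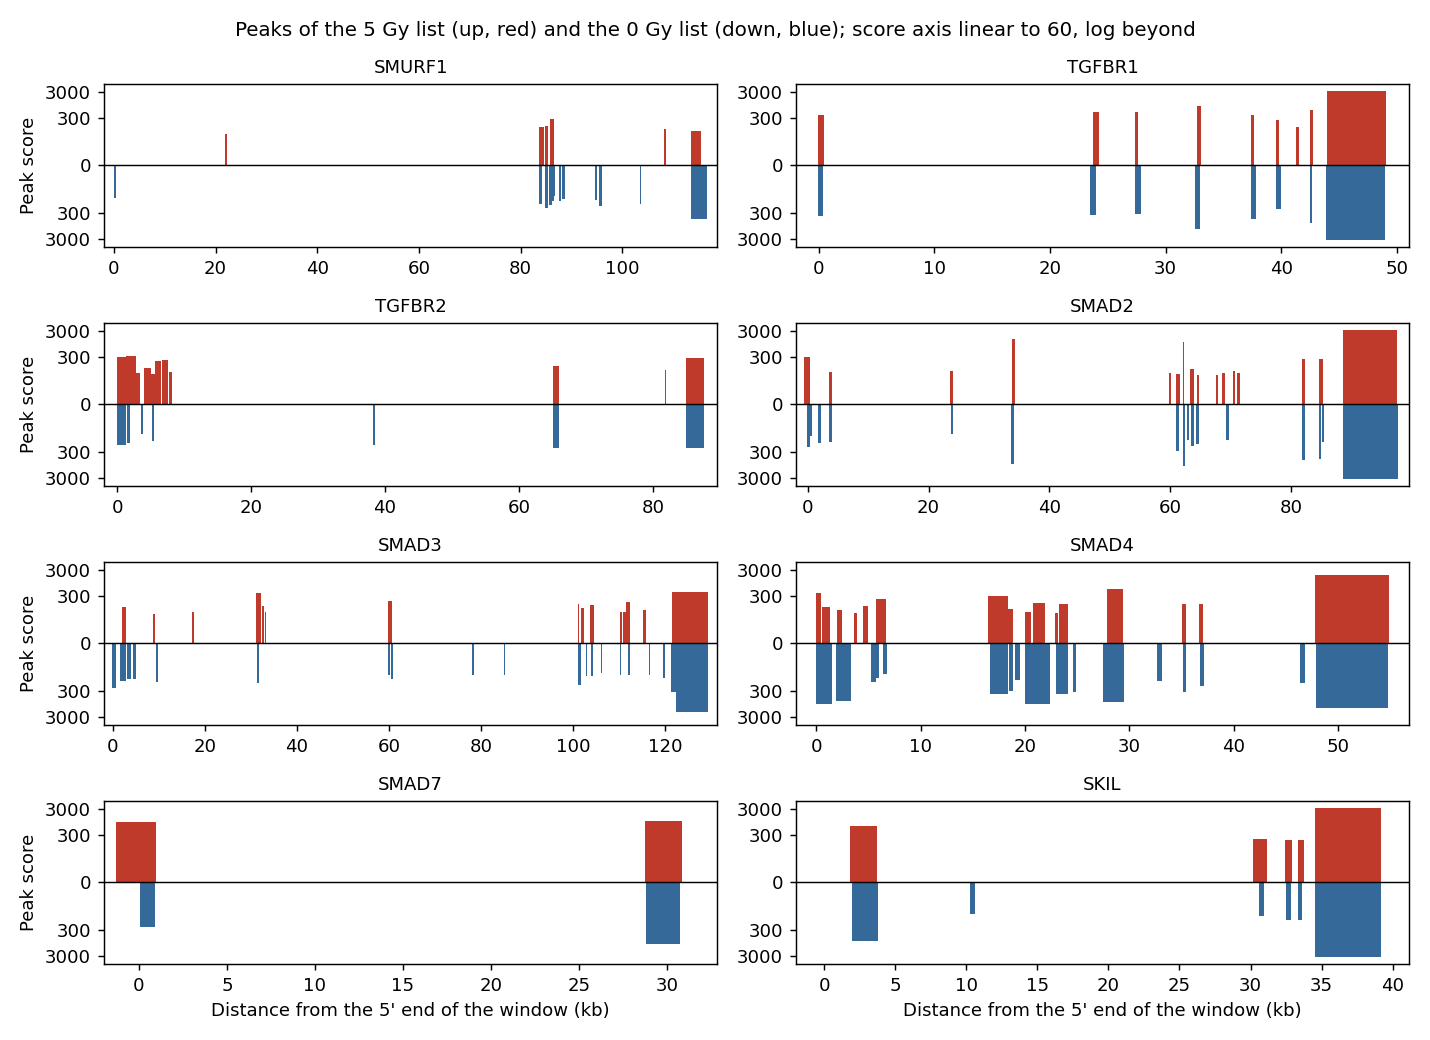
Peaks of the other 8 loci by distance from the 5′ end of the window (kb) and peak score (axis linear to 60 and logarithmic beyond), with the 5 Gy list upward in red and the 0 Gy list downward in blue. The long peak at the 3′ end stands in both lists in every locus, and the row of 5 Gy peaks at the start of TGFBR2 is broken at 0 Gy.

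SMAD2, a receptor-regulated SMAD, held 16 peaks in each list, spanning 16.4 kb at 5 Gy and 16.0 kb at 0 Gy (chr18:45359466-45456970, minus strand). With peaks of a score of at least 100 alone, 7 were left at 5 Gy and 14 at 0 Gy, and the small difference in covered length turned, to 81.6%. Its peak at the 3′ end was the longest of all member peaks, with 8903 bp at 5 Gy and 9244 bp at 0 Gy, and carried a score of 3100 in both lists. Scores of 3100 are tied for 2000 peaks at 5 Gy and 2481 at 0 Gy, so such peaks have no order among themselves. SMAD2 also had short peaks with high scores inside the gene. One of 220 bp at 5 Gy scored 1122.19 and lay on one of 346 bp at 0 Gy that scored 1041.73, 62.1 kb from the 5′ end. Another, of 600 bp at 5 Gy with a score of 1447.95, lay 33.7 kb from the 5′ end on one of 509 bp at 0 Gy with a score of 832.02. At the 5′ end a peak of 932 bp at 5 Gy lay over 3 peaks at 0 Gy, 1 of them outside the window, and 0.955 kb of the first 10 kb was covered at 5 Gy, and 1.79 kb at 0 Gy. The longest unmatched peaks in SMAD2 were short in both lists, 422 bp at 5 Gy and 444 bp at 0 Gy.

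SMAD3, the other receptor-regulated SMAD, had 15 peaks spanning 15.9 kb at 5 Gy, against 20 spanning 16.8 kb at 0 Gy (chr15:67358195-67487533, plus strand). Both orders turned with lists of equal size, to 136% in peak number and 116% in covered length. In that setting the number over all peaks is equal by construction. Like SMURF2 it had less covered at 5 Gy in the first 10 kb, with 2 peaks spanning 1.34 kb at 5 Gy, against 5 spanning 3.52 kb at 0 Gy, and more in the middle of the gene, with 6.65 kb at 5 Gy and 4.65 kb at 0 Gy. Of the 5 peaks at 0 Gy, 1 overlapped a 5 Gy peak. The background over all 0 Gy peaks was 58.1%, and 5 peaks are too few to set against it. With scores of at least 150 alone, no base of this stretch was covered at 5 Gy and 580 bp at 0 Gy. The longest unmatched 0 Gy peak, of 881 bp with a score of 224.65 (67357894 to 67358774), lay across the 5′ edge of the window, 1316 bp from the closest 5 Gy peak. The longest unmatched 5 Gy peak in SMAD3 had 591 bp and a score of 107.08. At the 3′ end of SMAD3, 1 peak of 7863 bp at 5 Gy, with a score of 404.11, lay over 2 peaks at 0 Gy of 949 and 7013 bp, the longer with a score of 1867.23. With RefSeq listing several starts along SMAD3 and an antisense gene within its bounds, peaks there cannot be assigned to 1 transcript from these lists.

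SMAD4, the partner shared by the activated SMADs, had 16 peaks spanning 18.2 kb at 5 Gy, against 17 spanning 20.7 kb at 0 Gy (chr18:48556583-48611412, plus strand), or 88.1% in covered length. Less was covered at 5 Gy in each of its 3 parts, with 3.54 kb at 5 Gy and 3.98 kb at 0 Gy in the first 10 kb, 7.61 kb at 5 Gy and 9.35 kb at 0 Gy in the middle, and 6.99 kb at 5 Gy and 7.36 kb at 0 Gy in the last 10 kb. The peak at the 5′ end was 532 bp long at 5 Gy and 1471 bp at 0 Gy, and the 0 Gy one lay against 2 peaks of the 5 Gy list. In the other direction, a 5 Gy peak of 954 bp, 5.67 kb from the 5′ end, lay over 3 peaks at 0 Gy of 416, 303 and 344 bp. Farther in, 1 peak of 2325 bp at 0 Gy lay against 2 at 5 Gy, of 578 and 1147 bp. By bases, 88.9% of those covered at 5 Gy and 77.9% of those covered at 0 Gy were held in common. The longest unmatched peaks in SMAD4 had 498 bp at 5 Gy and 452 bp at 0 Gy.

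The inhibitors SMAD7 and SKIL had few peaks, most of them placed alike at both doses. SMAD7, which blocks the type I receptor and brings the SMURF ligases to it, had 1 peak at each end of its window in each list (chr18:46446223-46477081, minus strand). The peak at the 3′ end spanned 2076 bp at 5 Gy against 1903 bp at 0 Gy, with scores of 1040.01 at 5 Gy and 1004.39 at 0 Gy. The peak at the 5′ end was 2287 bp at 5 Gy and reached past the window, while at 0 Gy a peak of 839 bp lay within it and another began 13 bp outside it. The SMAD7 covered length of 159% at 5 Gy relative to 0 Gy rests on that edge. Inside the window 9.83% of bases were covered at 5 Gy and 8.89% at 0 Gy, and with only peaks centred in the window the order turned, to 75.7%.

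SKIL, a nuclear corepressor that binds SMADs, had 5 peaks spanning 8.53 kb at 5 Gy, against 6 spanning 7.69 kb at 0 Gy (chr3:170075466-170114623, plus strand). The order in peak number turned, to 125%, with peaks of a score of at least 100 alone. All 5 peaks at 5 Gy matched a 0 Gy peak. The 0 Gy peak without a match had 347 bp and a score of 73. The row of 3 short peaks before the 3′ end of SKIL was present at both doses, with lengths of 1016, 537 and 409 bp at 5 Gy and 360, 294 and 260 bp at 0 Gy.

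What the 9 loci shared was a long peak at the 3′ end of the window. In SMURF2 the outer end of the 5 Gy peak is itself the 3′ edge of the window, which was drawn from peaks. The presence of a peak at that end of SMURF2 was therefore fixed in advance, and the hg19 end of the gene was not placed. The longest peak within the last 10 kb overlapped a peak of the other list in 9 of 9 loci at both doses. Over all peaks of any length and place, 73.0% at 5 Gy and 58.1% at 0 Gy overlapped the other list, and the peaks counted here were picked as the longest of their end. It was the longest peak of its locus in 7 loci at 5 Gy, the exceptions being SMURF2 and SMAD7, and in 9 at 0 Gy. Its length at 5 Gy over that at 0 Gy lay between 0.96 and 1.12 in 8 loci and was 0.60 in SMURF1. In SMURF2 these peaks had 3846 bp at 5 Gy and 3811 bp at 0 Gy, with scores of 2641.39 at 5 Gy and 1774.86 at 0 Gy, each the highest of the locus in its list. In TGFBR1 they had 5171 bp at 5 Gy and 5124 bp at 0 Gy, in SMAD4 7032 bp at 5 Gy and 6959 bp at 0 Gy, and in TGFBR2 2784 bp at 5 Gy and 2685 bp at 0 Gy. In SKIL they had 4684 bp at 5 Gy and 4619 bp at 0 Gy. The last 10 kb of the 9 loci summed to 51.9 kb covered at 5 Gy and 51.3 kb at 0 Gy, or 101%, and single loci lay between 76.0% in SMURF1 and 120% in SKIL.

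The other parts of the loci had a wider range between single loci. The first 10 kb summed to 16.5 kb covered at 5 Gy and 22.8 kb at 0 Gy, or 72.5%, and single loci ranged from 0% in SMURF1 to 289% in TGFBR2. Without SMURF2 the first 10 kb had 15.9 kb at 5 Gy and 15.0 kb at 0 Gy, or 106%. In the middle parts 70.5 kb were covered at 5 Gy and 49.8 kb at 0 Gy, or 142%, and without SMURF2 25.1 kb at 5 Gy and 26.8 kb at 0 Gy, or 93.7%. Among the 23 stretches of 10 kb in the other 8 loci with at least 2 kb covered in both lists together, 2 were at least 2-fold higher at 5 Gy (1 in TGFBR2 and 1 in SMAD3) and 1 was at least 2-fold lower (in SMAD3). With a tile background of 5.81% higher and 9.29% lower, these few stretches are not a result about the loci.

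**Figure D5:**
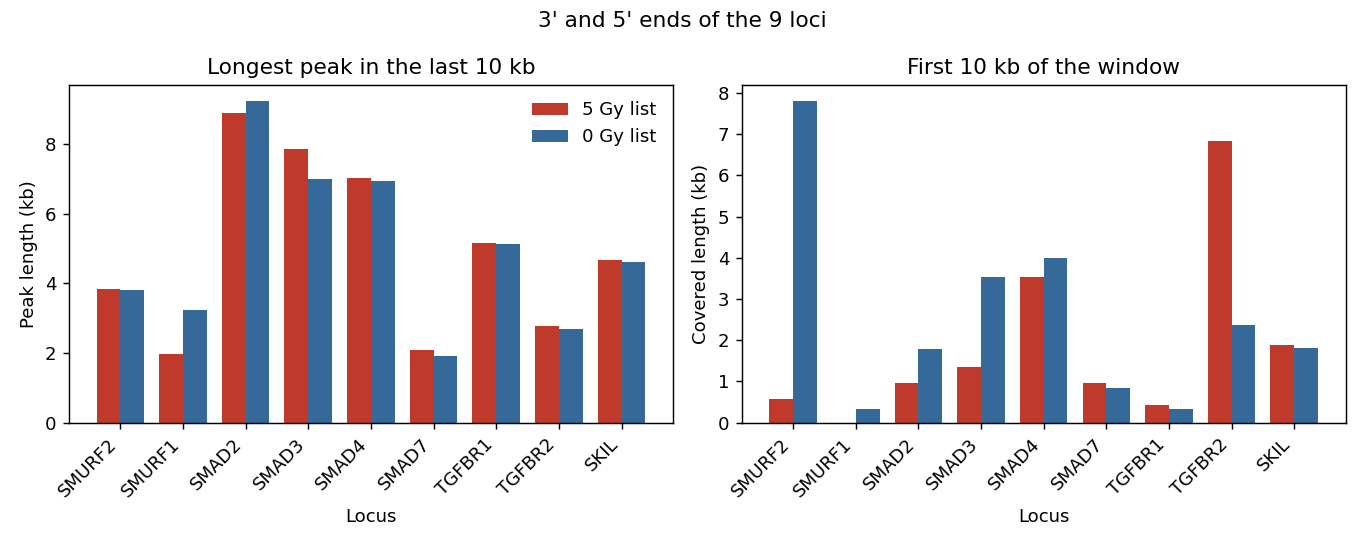
Length in kb of the longest peak in the last 10 kb of each locus (left) and length in kb covered within the first 10 kb of its window (right), 5 Gy in red and 0 Gy in blue, 1 library pair per dose. At the 3′ end the bars of a locus are close in 8 of 9 loci, while at the 5′ end SMURF2 has 0.579 kb at 5 Gy and 7.81 kb at 0 Gy and TGFBR2 6.83 kb at 5 Gy and 2.36 kb at 0 Gy.

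Over all 9 loci, 83 of 129 peaks at 5 Gy overlapped a 0 Gy peak (64.3%, 95% interval 55.8 to 72.1), and 99 of 139 peaks at 0 Gy overlapped a 5 Gy peak (71.2%, 63.2 to 78.1). Over all peaks these shares were 73.0% at 5 Gy and 58.1% at 0 Gy, so the members lay below the background at 5 Gy and above it at 0 Gy. These pooled shares include SMURF2, which was chosen on its contrast between the doses. Without SMURF2 the shares were 71.3% at 5 Gy (60.5 to 80.0), near the background, and 69.3% at 0 Gy (59.0 to 78.0). When 50% of each peak had to overlap, the shares over the 9 loci were 41.9% at 5 Gy and 38.1% at 0 Gy. Shares over all peaks were not computed under this rule, so it has no background here. Member peaks with a score of at least 1000 numbered 12 at 5 Gy (9.30%) and 9 at 0 Gy (6.47%), while over the whole lists the share was 13.1% at 5 Gy and 12.2% at 0 Gy. The member shares were the smaller ones in both lists. They rest on few peaks and have no interval, so they are not a result about the members. Of the members, 3 in each list were tied at 3100, in SMAD2, TGFBR1 and SKIL. At the window edges, 10 member peaks at 5 Gy and 6 at 0 Gy reached past an edge. The nearest peak left outside was 0.13 kb away at 5 Gy, beside SMAD4, and 0.013 kb away at 0 Gy, beside SMAD7.

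Of 234 joined regions with at least 30 kb covered by both lists together, 9 had a log2 ratio of covered length, 5 Gy over 0 Gy, at or above that of SMURF2 (0.50), SMURF2 included. Of the other regions, chr12:69201881-69244632 had the nearest ratio, 0.45 on the log2 scale, with 34.8 kb covered at 5 Gy against 25.5 kb at 0 Gy. Next came chr12:124060423-124096763, at 0.55, with 24.7 kb at 5 Gy against 16.9 kb at 0 Gy. The third was chr5:179125188-179158864, at 0.56, with 24.3 kb at 5 Gy against 16.5 kb at 0 Gy. Likeness here is the difference between log2 ratios over 1 pair of lists.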

How the data were processed

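HuR RIP and IgG libraries of WS1 fibroblasts at 5 Gy and 0 Gy (4 libraries, 1 per group) were used as 2 deposited peak lists, 1 per dose. Per the submitters' processing notes, the tools were cutadapt 1.9.1 and Bowtie2 2.2.4 and the build was hg19. Peak names in the deposited lists begin with MACS, whose version is not given in the sources used here. The authors' score per peak, deposited without a label, has a lowest value near 60, which a p-value of 1e-06 gives on a scale of 10 times its negative base-10 logarithm. Other deposited columns, named "other" here, are peak start and end in bp.

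Depth per library is unknown from these lists, and no read interval could be given. Replicates were not available, so no test was run. Shares have Wilson 95% intervals, which take peaks to be independent and hold for counting error alone. Covered length is the sum of whole peak lengths; parts of a window count the bases inside it. Computations used Python 3.11.15, numpy 2.4.6, pandas 2.3.3, scipy 1.17.1 and matplotlib 3.10.9, and the counting of overlaps was checked on simulated lists against brute force. Strand, starts and GC boxes came from RefSeq tables of GRCh38.p14, with 9 of 9 symbols matched, and no coordinate was moved between builds.

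The members and lists were chosen with earlier results of these data known. The parts of 10 kb, the first 12 kb of SMURF2, the tiles, the GC boxes and the 3′ end comparison were added once values had been seen. Named peaks were, per locus and list, the longest, the longest without a match and the one against most peaks of the other list; other peaks named were picked with their values in view. WS1 identity was not checked against markers, and other genes of the pathway were not analysed here, since no hg19 annotation was used.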

Additional observations from a re-analysis of the deposited data

How the results depend on the processing

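In all, 10 alternatives gave 166 recomputed values, of which 16 changed direction. The 166 include values that had no direction to change. These are the shares of overlapping peaks and the peak numbers of SMAD2 and SMAD7, which were equal at both doses. Covered length in the 9 loci at 5 Gy as a percentage of 0 Gy (113%) was 108% at scores of at least 100, 114% at scores of at least 150, 121% with equal list sizes (the 0 Gy list cut to its highest scores), 112% with peaks within 1 kb joined, 112% with only the bases inside the window, 111% with the peak centre in the window, 101% without the SMURF2 locus and 112% with windows widened by 5 kb, the last chosen after seeing the data. Peak number (92.8%) turned to 112% with equal list sizes, where the number over all peaks is equal at both doses by construction. The shared percentage of 5 Gy peaks (64.3%) was 72.9% at scores of at least 100, 82.1% with peaks joined and 41.9% when 50% of each peak had to overlap, and that of 0 Gy peaks (71.2%) was 59.1% at scores of at least 150 and 38.1% with the 50% rule. No shared percentage over all peaks was recomputed under these settings. SMURF2 covered length stayed above 100% in all 7 alternatives that apply to it (137 to 162%), as did TGFBR2 (141 to 186%) and SKIL (106 to 133%), and SMURF1 (15.2 to 68.0%) and SMAD4 (76.4 to 90.8%) stayed below. SMAD2 turned to 81.6%, 91.2%, 96.4% and 99.9% (scores of at least 100 and 150, peak centre, widened windows), SMAD3 to 100.3%, 112% and 116% (both score minima, equal list sizes), SMAD7 to 75.7% (peak centre) and TGFBR1 to 109% (peaks joined). SMAD2 peak number (100%) was 50% at scores of at least 100 and 66.7% at scores of at least 150. Peak number turned in SKIL (125% and 250% at scores of at least 100 and 150), SMAD3 (136%, equal list sizes), SMURF2 (109% at scores of at least 150, 114% with equal list sizes) and TGFBR2 (66.7%, peaks joined). The cause of these changes was not tested. In the first 10 kb, SMURF2 was at 0 to 7.42%, TGFBR2 at 268 to 354% and SMAD3 at 0 to 38.1% under 4 of these settings, and SMURF2 between its end parts at 187 to 278%. No paired analysis was possible because 1 library per condition was analysed. Unknown depth limits every comparison of peak number and length.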
